A study of Mus musculus with 4 samples.

Results

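Small nucleolar RNAs (snoRNAs) guide the chemical modification and cleavage of ribosomal and spliceosomal RNA, and in mammals most of them are cut out of the introns of longer host transcripts. Some hosts encode ribosomal or nucleolar proteins. Others, described here, make a spliced RNA with no known long protein product. The 9 noncoding hosts were chosen by gene symbol from the 50559 genes of 1 count table: *Gas5*, *Snhg1*, *Snhg3*, *Snhg5*, *Snhg6*, *Snhg8*, *Snhg12*, *Snhg15* and *Zfas1*. The rule used no measured value, although the hosts were proposed with earlier results of these data known. All 9 passed the filter on low counts, which left 18586 genes.

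As background, the spliced exons of such hosts hold short open reading frames that end early. Ribosomes that stop there expose the RNA to nonsense-mediated decay (NMD), the pathway that removes transcripts with a premature stop, so the exons are short-lived while the snoRNAs are stable. Several hosts begin with a run of pyrimidines, the 5′ terminal oligopyrimidine (5′TOP) that ribosomal protein mRNAs also carry. *Gas5*, named for growth arrest, is the classic case of a host whose exons accumulate when growth or translation is blocked.

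The libraries were poly(A)+ RNA-seq of E14 cells, a mouse embryonic stem cell (ESC) line, kept in serum replacement with leukemia inhibitory factor. There were 4 libraries and 1 per group. The group shscr_EV received a scrambled hairpin with an empty vector and is called the scrambled control. The group shYthdf2_EV carried a *Ythdf2* hairpin plus empty vector and is called the knockdown. The remaining groups received a *Ythdf2* hairpin with wild-type YTHDF2 (shYthdf2_WT, the wild-type rescue) or with mutated YTHDF2 (shYtdhf2_Mut, spelled so in the labels, the mutant rescue). YTHDF2 is a cytoplasmic reader of N6-methyladenosine (m6A) in RNA and speeds the decay of marked transcripts, and the study describes the mutant as deficient in m6A binding. All 4 groups were hairpin-carrying lines, made per the study by lentiviral infection and puromycin selection from ESCs with a tdTomato reporter driven by the MERVL promoter. The labels do not say which of the study's *Ythdf2* hairpins was used. The comparisons ask whether the host RNAs differ when *Ythdf2* is knocked down and whether either form of YTHDF2 returns them to the control level.

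The study's methods describe 2 biological replicates per group, but the labels give 1 library per group, and whether a library pools cultures is not given in the sources used here. No group had a replicate among these libraries, so no p-value is given. The 95% intervals beside log2 ratios are Clopper-Pearson intervals on read pairs, cover counting error only and compare libraries, not conditions. A host was counted as higher or lower in a comparison when its ratio was at least 1.5-fold. Libraries held between 31533129 and 35742335 reads on genes, and 3 reads corresponded to at most 0.0949 counts per 1000000 reads (CPM). *Ythdf2* had 2806 reads in the scrambled control, 662 in the knockdown, 7661 in the wild-type rescue and 6925 in the mutant rescue, in the order that the labels give. The 7 ESC markers, among them *Pou5f1*, *Nanog* and *Sox2*, each had at least 11511 reads in every library. Of 4 fibroblast markers, *Dcn* and *Lum* had 0 reads in all 4 libraries, *Col1a1* had 50 to 87 and *Col1a2* had 2 to 32. Summed levels were 1.58 to 3.18 CPM for these 4, 18.2 to 39.2 CPM for 3 trophectoderm markers, mostly *Krt8*, and 7.23 to 15.7 CPM for 4 primitive endoderm markers. The trophectoderm sum was lower, and the fibroblast and primitive endoderm sums higher, in the knockdown and the mutant rescue than in the other two. *Krt8*, *Elf5*, *Col1a1*, *Gata6* and *Dab2* went with their sums, while *Cdx2*, *Col1a2*, *Sox17* and *Gata4* did not. *Gata4* had 4.21 CPM in the scrambled control, 3.37 in the knockdown, 2.19 in the wild-type rescue and 2.23 in the mutant rescue. The part of these markers in the host values was not tested. In bulk RNA, fewer cells of a type and less RNA per cell cannot be told apart.

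The starts of the hosts are shown first, because 5′TOP transcripts are defined by their first bases. RefSeq promoters of GRCm38.p6 matched 8 of the 9 hosts, with 2 annotated starts for *Gas5*. The window searched ran from 5 bases before to 10 after the annotated start, and a run of at least 5 C or T touched it in 6 of the 8 hosts, against 42.0% of the 27025 genes in the promoter table. The letters TATA, read on the strand of the gene between 40 and 16 bases before the start, were found in 5 of the 8 hosts and in 7.02% of genes. The lines below, with GRCm38.p6 coordinates, hold 40 bases before and 30 after the start. Capitals mark the longest pyrimidine run that touched the searched window and any TATA letters between 40 and 16 bases before the start.
*Gas5*, second start (chr1:161035126-161035195, plus strand): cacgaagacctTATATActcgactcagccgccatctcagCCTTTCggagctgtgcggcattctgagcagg
*Snhg1* (chr19:8723447-8723516, plus strand): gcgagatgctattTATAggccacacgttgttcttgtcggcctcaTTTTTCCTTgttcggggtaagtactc
*Snhg5* (chr9:88522868-88522937, minus strand): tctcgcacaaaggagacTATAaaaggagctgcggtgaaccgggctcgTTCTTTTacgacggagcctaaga
*Snhg8* (chr3:123508307-123508376, minus strand): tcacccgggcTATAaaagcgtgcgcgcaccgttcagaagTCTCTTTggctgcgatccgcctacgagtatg
*Snhg12* (chr4:132308638-132308707, plus strand): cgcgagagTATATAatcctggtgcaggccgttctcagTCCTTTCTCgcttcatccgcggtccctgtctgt
*Snhg3* (chr4:132353657-132353726, minus strand): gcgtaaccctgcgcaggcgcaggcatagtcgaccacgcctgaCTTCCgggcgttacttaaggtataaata
*Snhg15* (chr11:6528731-6528800, minus strand): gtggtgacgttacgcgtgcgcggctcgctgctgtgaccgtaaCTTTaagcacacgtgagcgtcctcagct
The first 5 carry both features. *Snhg3* has a run of 5 pyrimidines and no TATA letters between 40 and 16 bases before the start. *Snhg15* has a run of 4 and no TATA letters there. *Zfas1*, not printed, likewise has a run of 4 and no TATA letters. The first annotated start of *Gas5*, also not printed, has a run of 3 and no TATA letters. These letters are a description of annotated starts, and the libraries do not measure where transcription began.

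The products carried in the introns are of both snoRNA families. Box C/D snoRNAs guide ribose methylation and hold the letters TGATGA near the 5′ end and CTGA near the 3′ end. Box H/ACA snoRNAs guide pseudouridylation and end a few bases after ACA. The examples below, from GENCODE vM21 transcripts, have these letters in capitals.
*Snord47*: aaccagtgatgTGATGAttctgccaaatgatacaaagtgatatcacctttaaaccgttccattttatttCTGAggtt
*Snord99*: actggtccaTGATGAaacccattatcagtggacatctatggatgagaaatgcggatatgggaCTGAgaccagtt
*Snord12*: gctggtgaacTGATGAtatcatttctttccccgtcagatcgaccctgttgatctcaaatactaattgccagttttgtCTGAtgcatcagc
*Snora73a*: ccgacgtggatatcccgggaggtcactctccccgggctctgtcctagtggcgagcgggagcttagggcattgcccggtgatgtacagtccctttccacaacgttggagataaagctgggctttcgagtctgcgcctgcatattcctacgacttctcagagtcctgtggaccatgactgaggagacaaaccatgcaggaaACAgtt
*Snord47* came from *Gas5*, *Snord99* from *Snhg12*, *Snord12* from *Zfas1* and *Snora73a* from *Snhg3*. Their reads are given after those of the hosts.

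Compared per length, as CPM per kilobase of exon, the hosts spanned from 8.87 to 126.5 in the mean of the 4 libraries. *Snhg1* was highest at 126.5, above 97.7% of the tested genes or level with them. *Gas5* followed at 82.5, *Snhg5* at 75.7, *Snhg3* at 62.7, *Snhg12* at 40.3, *Zfas1* at 39.2, *Snhg15* at 29.7 and *Snhg6* at 24.1. *Snhg8* was lowest at 8.87, and still above or level with 67.3% of tested genes. The ranges over the 4 libraries of *Snhg1* and *Gas5* did not overlap, nor did those of *Snhg3* and *Snhg12* or of *Snhg6* and *Snhg8*. All other neighbours in this order had overlapping ranges. Summed over the 9 hosts, the level was 317 CPM in the scrambled control, 305 in the knockdown, 345 in the wild-type rescue and 244 in the mutant rescue.

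**Figure D1:**
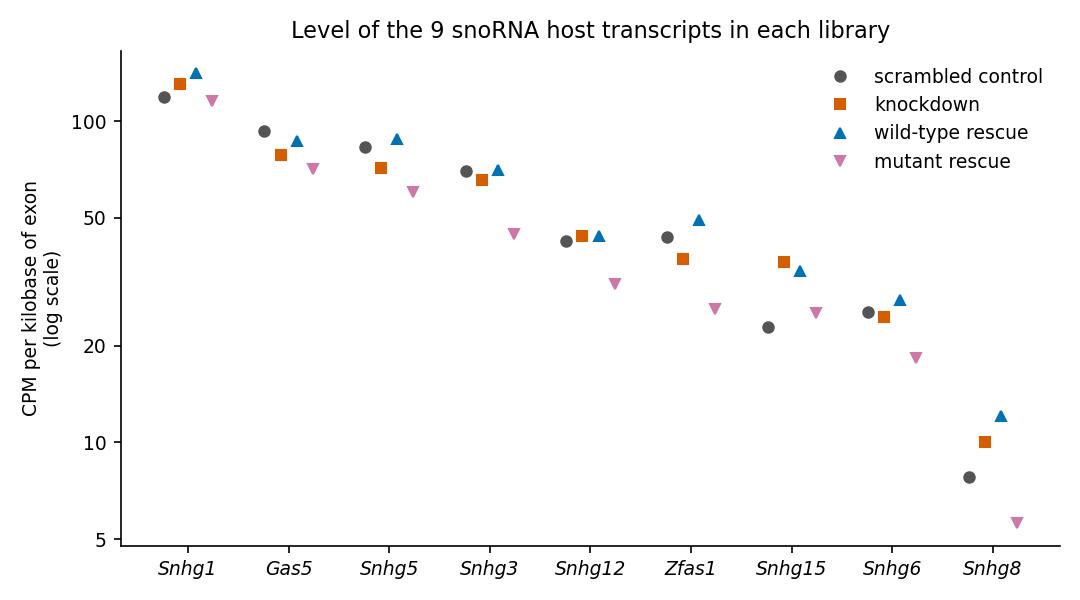
Level of each host in each of the 4 libraries, in CPM per kilobase of exon on a log axis, with hosts ordered by their mean; each point is 1 library and there are no error bars. The mutant rescue is the lowest library for 8 hosts, and *Snhg15* is instead lowest in the scrambled control.

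The plot of levels by library shows the main pattern: 8 of the 9 hosts were lowest in the mutant rescue, and 7 of 9 were highest in the wild-type rescue. Of all tested genes, 25.9% were lowest in the mutant rescue and 26.4% highest in the wild-type rescue. The 9 hosts, however, had exons of 407 to 1011 bases, and 68.1% of the 533 other genes of that length whose counts averaged 200 or more were lowest in the mutant rescue too, while 54.97% of them were highest in the wild-type rescue. The host values that follow are therefore set beside those of the genes of like length. That comparison was added after the data were seen. Coordinates of the hosts are those of the deposited mm39 table.

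*Gas5* (chr1:160862171-160866109, plus strand, 13 exon blocks summing to 620 bases) had 57.8 CPM in the scrambled control, 48.8 in the knockdown, 53.9 in the wild-type rescue and 44.2 in the mutant rescue. It was the only host highest in the scrambled control. The mutant to wild-type log2 ratio was -0.29 (-0.43 to -0.14), the smallest in size of the 9. The first exons of *Gas5* overlap the antisense gene *Zbtb37*, and counting was unstranded with shared reads left out, so the values of both are uncertain. *Zbtb37* had 979 reads in the wild-type and 926 in the mutant rescue.

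*Snhg1* (chr19:8700851-8703690, plus strand, 476 exon bases), host of 8 snoRNA rows in the table, had 56.6 CPM in the scrambled control, 62.1 in the knockdown, 67.2 in the wild-type rescue and 54.99 in the mutant rescue. The libraries lay within 1.22-fold of each other, the narrowest range among the hosts. Its mutant to wild-type log2 ratio was -0.29 (-0.42 to -0.16).

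*Snhg5* (chr9:88403105-88404950, minus strand, 1011 exon bases) had 84.0 CPM in the scrambled control, 72.2 in the knockdown, 89.3 in the wild-type rescue and 60.9 in the mutant rescue. The knockdown lay between the mutant rescue and the other two. Mutant to wild-type, the log2 ratio was -0.55 (-0.67 to -0.44).

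*Snhg3* (chr4:132079244-132080997, minus strand, 437 exon bases), which carries *Snora73a* and *Snora73b*, guides used in cutting the ribosomal RNA precursor, had 30.6, 28.6 and 30.8 CPM in the scrambled control, the knockdown and the wild-type rescue. In the mutant rescue it had 19.5 CPM. Only the mutant rescue stood apart, with a log2 ratio of -0.66 (-0.87 to -0.46) to the wild-type rescue and -0.55 (-0.76 to -0.35) to the knockdown.

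*Snhg12* (chr4:132035989-132038335, plus strand, 606 exon bases), a close neighbour of *Snhg3*, had 25.7 CPM in the scrambled control, 26.5 in the knockdown, 26.7 in the wild-type rescue and 18.8 in the mutant rescue. Here too 3 libraries lay close together and the mutant rescue stood apart. Mutant to wild-type, the log2 ratio was -0.50 (-0.72 to -0.29).

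*Zfas1* (chr2:166904854-166907782, plus strand, 738 exon bases) had 32.2 CPM in the scrambled control, 27.6 in the knockdown, 36.5 in the wild-type rescue and 19.3 in the mutant rescue. The mutant rescue held 52.8% of the wild-type level, a log2 ratio of -0.92 (-1.13 to -0.72). *Zfas1* starts head to head with and overlaps *Znfx1*, so both are uncertain in unstranded counts. *Znfx1* had 1285 reads in the wild-type and 1145 in the mutant rescue, a log2 ratio of -0.12 (-0.28 to 0.05), smaller than that of *Zfas1*.

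*Snhg8* (chr3:123301201-123301985, minus strand) is annotated as 1 exon of 785 bases that holds *Snora24*, and reads over both genes were left out. It had 6.11 CPM in the scrambled control, 7.87 in the knockdown, 9.48 in the wild-type rescue and 4.40 in the mutant rescue. The mutant rescue held 46.5% of the wild-type level, a log2 ratio of -1.10 (-1.53 to -0.69) and the lowest of the 9. It was also the host with the fewest reads, 140 to 312 per library.

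*Snhg6* (chr1:10012250-10014343, minus strand, 407 exon bases) had 10.4 CPM in the scrambled control, 10.01 in the knockdown, 11.3 in the wild-type rescue and 7.45 in the mutant rescue. Mutant to wild-type, the log2 ratio was -0.60 (-0.95 to -0.27). Its 3 log2 ratios to the scrambled control lay closest to the median of the 9 hosts.

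*Snhg15* (chr11:6475591-6478760, minus strand, 592 exon bases) had 13.6 CPM in the scrambled control, 21.6 in the knockdown, 20.3 in the wild-type rescue and 14.9 in the mutant rescue. The scrambled control and the mutant rescue lay low, the other two high. Its profile was the farthest of the 9 from the median of the hosts. The knockdown to scrambled control log2 ratio was 0.67 (0.43 to 0.92), the one host counted as higher in that comparison.

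In the knockdown against the scrambled control, the 9 hosts had a median log2 ratio of -0.05, beside 0.00 for all tested genes, with 4 above and 5 below 0. Only *Snhg15* was at least 1.5-fold higher, where 13.8% of tested genes were, and none was at least 1.5-fold lower, where 12.9% of tested genes were. *Snhg1* at 0.13 (0.01 to 0.26) was the other host whose interval lay above 0. The intervals of *Gas5* (-0.24), *Zfas1* and *Snhg5* (both -0.22) lay below 0. The 533 genes of like length had a median of 0.23, and 74.9% of them were above 0. The host median was thus 0.28 lower than theirs on the log2 scale, with *Snhg15* and *Snhg8* the only hosts above it.

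In the wild-type rescue against the knockdown, 8 of the 9 hosts were above 0, where 50.4% of tested genes were, and the median log2 ratio was 0.14. *Zfas1* at 0.40 (0.23 to 0.58), *Snhg5* at 0.31 (0.20 to 0.42) and *Gas5* at 0.14 (0.00 to 0.28) had intervals above 0. No host was at least 1.5-fold higher, where 12.2% of tested genes were, and none at least 1.5-fold lower, where 11.1% were. Genes of like length had a median of 0.06. Against the scrambled control, the wild-type rescue had a host median of 0.13. *Snhg8* at 0.63 (0.27 to 1.02) was at least 1.5-fold higher, where 9.25% of tested genes were, and *Snhg15* at 0.58 (0.33 to 0.84) was just under that fold. No host was at least 1.5-fold lower, where 7.1% of tested genes were. Genes of like length had a median of 0.30 in that comparison, above the host median, and 9.57% of them were at least 1.5-fold higher.

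In the mutant rescue against the knockdown, 2 libraries that both carry a *Ythdf2* hairpin and differ in the vector, all 9 hosts were below 0 and all 9 intervals lay below 0. The median log2 ratio was -0.49 and the range ran from -0.84 for *Snhg8* to -0.15 for *Gas5*. *Snhg8* alone was at least 1.5-fold lower, where 8.82% of tested genes were, and no host was at least 1.5-fold higher, where 6.51% were. Of the genes of like length, 91.6% were below 0 and 18.0% were at least 1.5-fold lower. Their median was -0.38, 0.11 above that of the hosts.

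In the mutant against the wild-type rescue, all 9 hosts were again below 0 with intervals below 0, where 51.0% of tested genes were below 0. The median log2 ratio was -0.55, beside -0.01 for all tested genes, and *Snhg8*, *Zfas1*, *Snhg3* and *Snhg6* were at least 1.5-fold lower, where 14.9% of tested genes were. No host was at least 1.5-fold higher, where 12.2% of tested genes were. Among the 533 genes of like length, 88.7% were below 0, 32.3% were at least 1.5-fold lower and the median was -0.43, so the host median lay 0.12 below theirs. The middle 50% of those genes ran from -0.65 to -0.23 and held 6 of the 9 host ratios. *Snhg8*, *Zfas1* and *Snhg3* lay below that range. These 2 comparisons share the mutant rescue library, so its composition enters both.

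**Figure D2:**
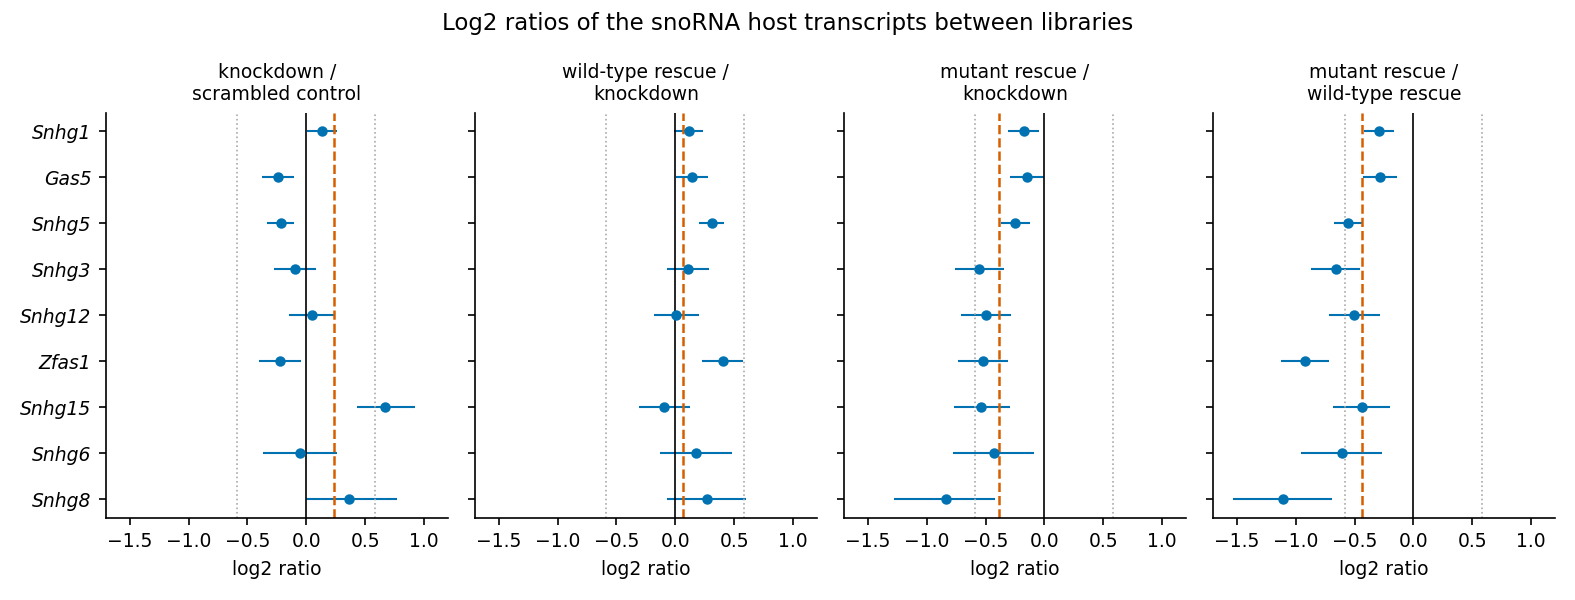
Log2 ratio of each host in 4 comparisons between 2 libraries each, with 95% counting-error intervals as bars; the solid line is 0, dotted lines mark 1.5-fold and the dashed line is the median of 533 other genes with exons of 407 to 1011 bases. All 9 hosts lie below 0 in both comparisons of the mutant rescue, on both sides of the dashed line, and 7 of 9 lie below the dashed line in the knockdown.

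Exon length moved with the ratio over the whole table. When the tested genes were split into 10 bins of like size by exon length, the shortest bin, of up to 1038 bases, held all 9 hosts. Its median mutant to wild-type log2 ratio was -0.33, that of the longest bin was 0.19, and the medians increased from each bin to the next in all but 1 step. GC content moved with it too, from a median of 0.29 in the bin with the least GC to -0.32 in the bin with the most. The hosts had a median GC content of 45.1%, below the 49.9% of tested genes, and *Snhg15* alone lay above the latter. When the median of genes of like GC content and length was subtracted, with length in 5 bins, all 9 hosts remained below 0 in both mutant comparisons, with medians of -0.33 against the knockdown and -0.45 against the wild-type rescue. When the median of the 533 genes of like length was subtracted instead, the medians were -0.11 and -0.12, *Gas5* and *Snhg1* were above 0 in both and *Snhg5* in the first. The causes of these trends were not tested.

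**Figure D3:**
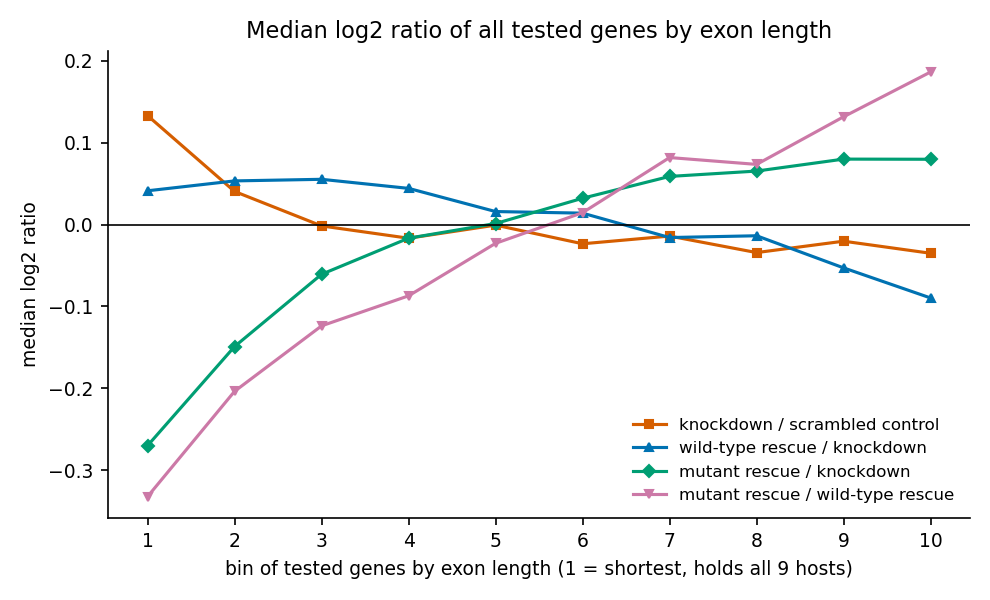
Median log2 ratio of all tested genes in each of 10 bins by exon length, for 4 comparisons; each point is a median over 1854 to 1863 genes. In the 2 comparisons of the mutant rescue the shortest bin, which holds the 9 hosts, has medians of -0.27 and -0.33.

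The table also lists snoRNAs within the hosts as rows of their own, 30 in all. Together they had 4126 reads in the scrambled control, 3926 in the knockdown, 3972 in the wild-type rescue and 2956 in the mutant rescue, between 25.9% and 29.2% of the reads on hosts and snoRNA rows. *Gas5* and *Snhg1* held 8 rows each. *Snora24*, inside the exon of *Snhg8*, had 0 reads because shared reads were left out. Mature snoRNAs lack a poly(A) tail and are shorter than most library fragments, so whether these reads came from them or from unspliced host RNA cannot be told apart.

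Summed over the hosts, the mutant to wild-type log2 ratio was -0.38 (-0.47 to -0.28) for the snoRNA rows and -0.50 (-0.56 to -0.44) for the exons, with overlapping intervals. The 137 tested snoRNA rows outside these hosts had a summed ratio of -0.06 (-0.13 to 0.01), close to 0. The snoRNA rows of *Gas5* had 1092 reads in the wild-type and 713 in the mutant rescue, a ratio of -0.57 (-0.76 to -0.37), whose interval overlaps that of its exons. Those of *Zfas1*, at -0.29 (-0.62 to 0.04), lay above the interval of its exons. Those of *Snhg1* had a ratio of -0.13 (-0.31 to 0.05), whose interval holds 0.

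In *Snhg3* the pair of guides parted. *Snora73a* had 549 reads in the scrambled control, 489 in the knockdown, 526 in the wild-type rescue and 258 in the mutant rescue. *Snora73b* had 534, 463, 472 and 400 in the same order. The mutant to wild-type log2 ratio was -0.98 (-1.29 to -0.67) for *Snora73a* and -0.19 (-0.47 to 0.09) for *Snora73b*. The sequences are near copies of each other, and reads that aligned to both places were left out, so the split between them is uncertain.

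In the knockdown against the scrambled control, the snoRNA rows of the hosts had a summed log2 ratio of -0.26 (-0.35 to -0.17), below that of the exons at -0.05 (-0.11 to 0.00). Within single hosts that had reads on such rows, the intervals of rows and exons overlapped, except in *Snhg15*. The rows of *Zfas1* had 431 reads in the scrambled control and 311 in the knockdown, a ratio of -0.66 (-0.96 to -0.35). Its exons were at -0.22 (-0.40 to -0.04). *Snord12*, the one shown above, had 102 and 52. In *Snhg15* the single snoRNA row had 116 and 118 reads, a ratio of -0.16 (-0.71 to 0.39), while the exons were at 0.67. The interval of that row lay below the interval of the exons.

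**Figure D4:**
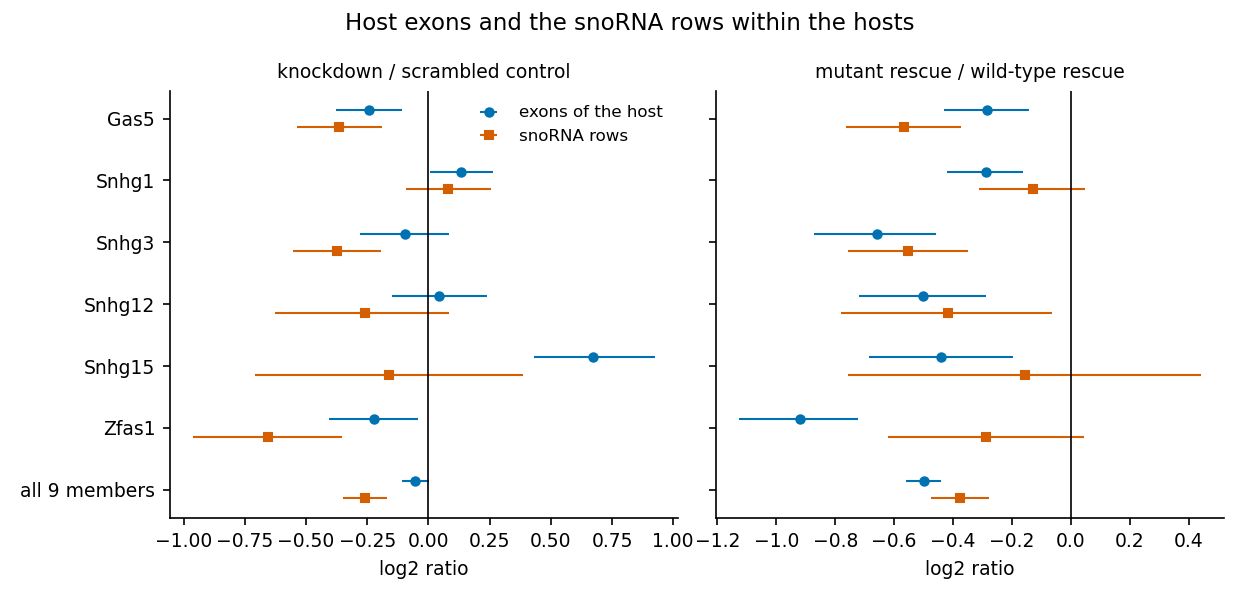
Log2 ratios with 95% counting-error intervals for host exons (circles) and for the summed snoRNA rows within each host (squares), in 2 comparisons, for the hosts whose snoRNA rows held at least 92 reads in each library and for all 9 together. The *Snhg15* exons lie apart from its snoRNA row in the knockdown, and the *Zfas1* exons lie lower than its rows in the mutant rescue.

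Other noncoding snoRNA hosts, 13 by list and 11 tested, were compared in the mutant against the wild-type rescue. Their median log2 ratio was -0.36, with 4 at least 1.5-fold lower and 1 at least 1.5-fold higher. Of the 4 with exons no longer than the longest of the 9 hosts, 3 were at least 1.5-fold lower: *Epb41l4aos* at -0.96, *Snhg20* at -0.87 and *Snhg7* at -0.65. Of the 7 longer ones, *Dancr* at -0.62 was the only one. *Snhg14*, the very long host of the imprinted Prader-Willi region, went the other way at 0.96 (0.75 to 1.16). It had 578 reads in the scrambled control, 1274 in the knockdown, 591 in the wild-type rescue and 1109 in the mutant rescue, high in the knockdown and the mutant rescue and low in the other two. *Rian*, the snoRNA host of the imprinted *Dlk1*-*Dio3* region on chromosome 12, had 16527 reads in the scrambled control and 11621 in the knockdown, a log2 ratio of -0.69 (-0.74 to -0.65). The 418 genes of chromosome 12 that were compared, not all genes of that chromosome, had a median of -0.29 in that comparison, against 0.01 on the other autosomes.

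Protein-coding hosts, 29 in all, had a median log2 ratio of -0.44 in the mutant against the wild-type rescue. Of them 24 were below 0 and 5 above, with 6 at least 1.5-fold lower and none at least 1.5-fold higher. Many of these hosts encode ribosomal proteins and are also among the 79 genes below, so these lists overlap. In the knockdown against the scrambled control their median was 0.00, with *Rpl21* highest at 0.50 and *Rpl3* lowest at -0.60. The 79 cytosolic ribosomal protein genes, the best-known 5′TOP mRNAs, were all below 0 in the mutant against the wild-type rescue, with a median of -0.61 and 42 at least 1.5-fold lower. In the knockdown against the scrambled control their median was 0.20, with *Rpl29* highest at 0.60 (0.28 to 0.94). Without the 47 ribosomal protein genes among them, the genes of like length still had a median of -0.41.

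The decay and assembly machinery had medians near 0, with single genes on both sides of it. The 20 NMD factors had a median log2 ratio of 0.15 in the mutant against the wild-type rescue and 0.06 in the knockdown against the scrambled control, with none past 1.5-fold in either. *Magohb*, an exon junction protein, was highest in the knockdown at 0.52 (0.17 to 0.89), and *Nbas* lowest at -0.49 (-0.62 to -0.36). The 17 proteins that form or assemble snoRNA particles had medians of 0.05 and 0.10, with none past 1.5-fold. Their highest in the knockdown was *Znhit3*, an assembly factor for box C/D particles, at 0.52, and their lowest *Dkc1*, the pseudouridine synthase of box H/ACA particles, at -0.22.

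The 7 listed mRNAs known as NMD targets did not show one direction. *Atf4*, the stress-response transcription factor, had 979 reads in the scrambled control, 2221 in the knockdown, 1553 in the wild-type rescue and 2026 in the mutant rescue. Its knockdown to control log2 ratio was 1.00 (0.84 to 1.15). *Gadd45b*, a growth arrest gene, had 1526, 1051, 1918 and 862 reads in the same order, a mutant to wild-type ratio of -1.10 (-1.27 to -0.94). The median of the 7 in that comparison was -0.08.

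**Figure D5:**
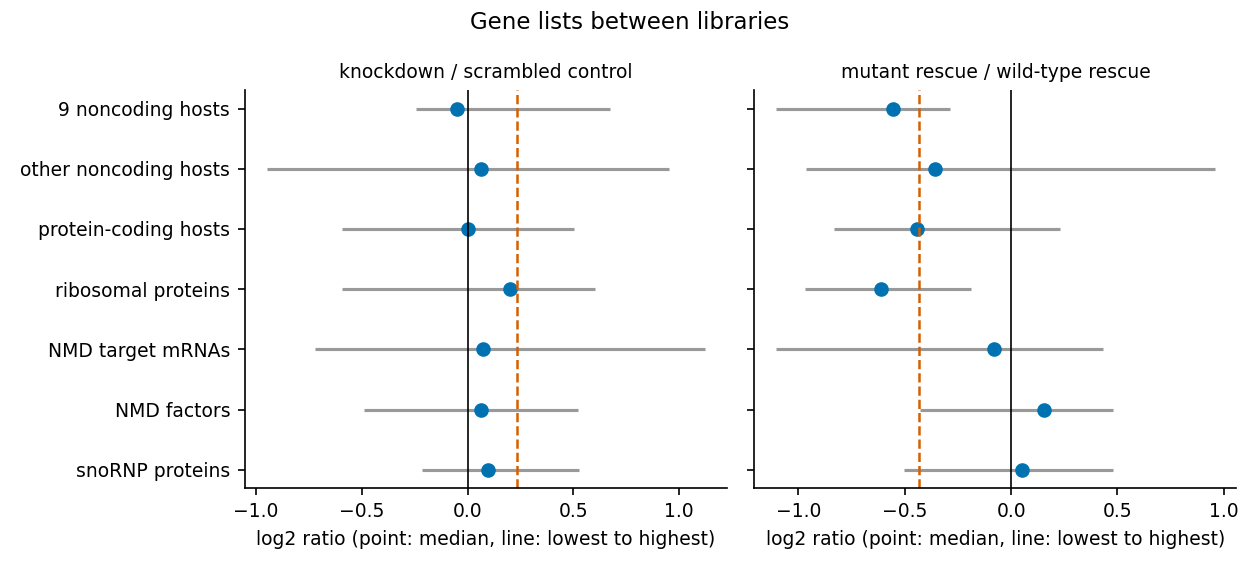
Median (point) and lowest to highest value (line) of the log2 ratio in 7 gene lists, for the knockdown against the scrambled control and the mutant against the wild-type rescue; the solid line is 0 and the dashed line the median of 533 genes of the hosts' exon length. In the right panel the 3 host lists and the ribosomal proteins have medians between -0.61 and -0.36, and the NMD factors and snoRNA particle proteins have medians of 0.15 and 0.05. Many protein-coding hosts are ribosomal protein genes and are in both of those lists.

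The letters GGAC, the core of the sequence in which m6A is usually laid, were counted in the longest GENCODE vM21 transcript of each gene. All 9 hosts held them, with 43 matches in 13193 bases, or 3.26 per kb against 4.10 over 16726 tested genes. *Gas5* had 15 matches, *Zfas1* had 8 and *Snhg3* had 1. The files hold no measurement of m6A. The longest transcript was longer than the counted exons for 8 of the 9 hosts, all but *Snhg8*, and more than 1.5 times as long for *Gas5*, *Snhg1*, *Snhg6*, *Snhg12* and *Zfas1*, so these matches and the GC content partly describe sequence that was not counted.

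Among 8535 other genes whose counts averaged 500 or more, the 5 whose 3 log2 ratios to the scrambled control lay nearest to the host medians were *Ssr4*, *Rec114*, *Reep5*, *Erdr1* and *Rabac1*. *Ssr4*, at a Euclidean distance of 0.0218, had 1099 reads in the scrambled control, 1218 in the knockdown, 1264 in the wild-type rescue and 800 in the mutant rescue. The hosts themselves lay from 0.0135 for *Snhg6* to 1.04 for *Snhg15* from that median, a radius that took in 7917 of the 8535 genes.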

How the data were processed

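RNA-seq of 4 E14 ESC libraries was analysed, 1 per group by its title. The authors deposited read counts per gene, made with featureCounts 2.0.3 on an mm39 RefSeq annotation per the file headers, unstranded, without multi-mapping or multi-overlapping reads, and counting reads, not pairs. The deposited exon length was used per gene as a count of bases. The submitters' processing notes name fastp 0.19.4, HISAT2 2.2.1, DESeq2 1.40.2 and mm10. Totals ran from 31533129 to 35742335 reads.

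Library sizes were scaled by TMM (edgeR 4.0.16, R 4.3.3), a prior count of 0.5 was added and log2 ratios were taken for 5 comparisons. Genes whose counts averaged 10 or more were tested. Intervals were computed with scipy 1.17.1 on reads divided by 2. Amplified reads are not independent molecules, so intervals and floors cover counting error only. The scripts were tested on simulated counts.

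The hosts and lists were chosen with earlier results of these data known. Named genes were the 9 hosts, other tested noncoding hosts, *Ythdf2*, rows overlapping a host, the highest and lowest of each other list in the knockdown against the scrambled control among genes averaging 200 or more, and the 5 genes nearest in pattern. Longer text on *Snhg14* and *Rian* came after their values were seen. GC content came from GENCODE vM21, with a value for 90.0% of tested genes. Alternatives were scaling by upper quartiles, by total counts or by DESeq2 1.42.0 size factors, raising the prior count to 5, a filter at an average of 1 or 50, a 2-fold threshold, ratios of summed counts, a GC and length correction (10 by 5 bins) and, added after the data were seen, subtraction of the median of genes of the same exon length.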

Additional observations from a re-analysis of the deposited data

How the results depend on the processing

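No paired analysis was possible because each group had 1 library, and leaving out a replicate was not possible either. With 1 library per group, differences between libraries and between conditions cannot be told apart, and depth limits *Snhg8* and single snoRNA rows most. Of 405 alternative values for 60 results, 357 stayed within the tolerance set for each, which was the counting-error interval for a log2 ratio, 39 moved beyond it and 9 turned the sign of a ratio whose interval excluded 0. In all 17 values had another sign than reported, 2 under the GC and length correction and 15 under the subtraction for exon length. No host changed direction under another scaling or prior count.

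At a 2-fold threshold, 0 hosts were higher in the knockdown than in the scrambled control, 0 were lower in the mutant rescue than in the knockdown, 1 was lower in the mutant than in the wild-type rescue and 0 were higher in the wild-type rescue than in the scrambled control. Scaling by total counts gave 2 hosts higher in that last comparison. The GC and length correction gave a median log2 ratio of 0.31 for the wild-type rescue against the knockdown. It left 2 hosts at least 1.5-fold lower in the mutant than in the wild-type rescue. In the knockdown against the scrambled control it reversed *Snhg1* to -0.047. There it also turned *Snhg12*, whose interval held 0, to -0.0042, so that 2 hosts were above and 7 below 0.

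Subtracting the median of genes of the same exon length left medians of -0.11 for the mutant rescue against the knockdown and -0.12 against the wild-type rescue, with 0 and 1 hosts at least 1.5-fold lower. It left 0 hosts higher in the knockdown than in the scrambled control and 0 in the wild-type rescue than in the scrambled control. *Snhg1* reversed to -0.10 in the knockdown and to -0.053 in the wild-type rescue, both against the scrambled control, and *Zfas1* to -0.12 in the latter, where the median of the hosts also turned to -0.17. In the wild-type rescue against the scrambled control, *Snhg3* turned to -0.29, *Snhg5* to -0.21, *Snhg6* to -0.17 and *Snhg12* to -0.25. The intervals of these ratios had held 0. *Snhg12* turned to -0.19 in the knockdown against the scrambled control and to -0.06 in the wild-type rescue against the knockdown. In the mutant rescue against the knockdown *Gas5* reversed to 0.24, *Snhg1* to 0.21 and *Snhg5* to 0.14, and against the wild-type rescue *Gas5* reversed to 0.15 and *Snhg1* to 0.15. The statement that all 9 hosts were lower in the mutant rescue thus holds relative to all genes and not relative to genes of their length.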

Other observations

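Among the 11 other noncoding hosts tested, the shortest had the lowest ratio and the longest the highest. In the mutant against the wild-type rescue, *Epb41l4aos*, with 433 exon bases, had the lowest log2 ratio at -0.96, and *Snhg14*, with 24206, had the highest at 0.96. *Snhg11*, with 6118, was the other one above 0, at 0.20. *Snhg10*, with 529 exon bases and 12 to 31 reads per library, was at -0.06, away from the other short ones. No test of this order was made.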
